A study of Mus musculus with 12 samples.

Results

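The ERK negative feedback genes described here were 9 genes: Dusp4, Dusp5 and Dusp6, which code for phosphatases that remove the activating phosphates of ERK, Spry1, Spry2 and Spry4 of the Sprouty family, Spred1 and Spred2 of the Spred family, and Phlda1. They were listed by name with no threshold on a measured value, although earlier results of these data were known, and were 9 of the 39017 genes in the table. All 9 passed the filter on low counts and were among the 17885 genes tested. In the RefSeq annotation of GRCm38.p6, Dusp4 lies at chr8:34807610-34819894, Dusp5 at chr19:53529145-53541809 and Dusp6 at chr10:99263231-99267489. Spry1 lies at chr3:37639947-37644599, Spry2 at chr14:105891947-105896819 and Spry4 on chromosome 18. Spred1 lies at chr2:117121071-117182279, Spred2 at chr11:19924442-20024026 and Phlda1 at chr10:111506286-111508649, on the same chromosome as Dusp6.

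Poly(A) RNA was sequenced from mouse embryonic stem cells (mESCs) of 2 male lines, each grown in 2 media, in 12 libraries with 3 replicates per group that were labelled as biological. J1 is a wild-type line, while 3B3-3l (also written 3B3L) lacks endogenous Dnmt3a and Dnmt3b (Dnmt3a-/-, Dnmt3b-/-). The 3B3-3l line carries transgenes for Dnmt3b and Dnmt3l, each from a CAG promoter, so that the 3B3-3l groups came from 1 selected line. Serum medium held fetal calf serum and LIF, whereas 2i medium was serum-free N2B27 with LIF, 1 µM PD0325901, an inhibitor of the ERK kinase MEK, and 3 µM CHIR99021, an inhibitor of GSK3. J1 cells in serum were kept on inactivated feeder cells, which were depleted by pre-plating, while 3B3-3l cells were kept on gelatin.

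Growth factors such as FGF4 act through receptor tyrosine kinases, RAS, RAF and MEK to phosphorylate ERK, which in mESCs primes cells to leave the naive state. Active ERK induces genes whose products shut the same pathway down at several levels, and their transcripts are therefore widely used as a readout of pathway activity. DUSP4 and DUSP5 act in the nucleus and DUSP6 in the cytoplasm, Sprouty and Spred proteins act upstream, at the level of receptor adaptors, RAS and RAF, and PHLDA1 is a pleckstrin homology-like domain protein that is induced by the pathway.

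The libraries held between 37050652 and 44515395 estimated reads. The summed level of 10 ES cell markers, among them Pou5f1 and Nanog, lay between 4812 and 6423 CPM (counts scaled to library size) in every library. Single markers moved with the medium. In both lines the means of Nanog, Esrrb and Dppa5a were higher in 2i, and those of Sox2, Sall4, Utf1, Lin28a and Fut4 were lower. Pou5f1 and Zfp42 were lower in J1 2i and higher in 3B3-3l 2i. In J1 serum and 2i, Nanog had means of 307 and 631 CPM and Lin28a of 385 and 144 CPM. The summed level of 15 fibroblast markers moved with the medium: it was 85.9 to 94.6 CPM in J1 serum and 121 to 140.03 CPM in 3B3-3l serum, against 47.4 to 48.6 and 34.2 to 35.0 CPM in 2i. Of these 15 markers, 6 were above 1 CPM on average in J1 serum, 8 in 3B3-3l serum, 5 in J1 2i and 6 in 3B3-3l 2i. The collagen genes made up most of the summed level in serum: Col1a1 had means of 28.1 (J1) and 35.5 CPM (3B3-3l) in serum and of 3.28 and 2.30 CPM in 2i, and Col5a1 had means of 25.8 and 44.9 CPM in serum and of 17.0 and 14.8 CPM in 2i. Of the 15 markers, only Pdgfrb had a higher mean in J1 2i (19.4 CPM) than in J1 serum (6.31 CPM). In 3B3-3l its means were 7.39 CPM in serum and 7.33 CPM in 2i. Dcn, Lum and Twist2 were at 0 in every 2i library, and in serum the means of these genes and of Postn and Col3a1 were at most 0.651 CPM. A summed level of 8 primitive endoderm markers of 108 to 123 CPM in J1 serum compared with 177 to 196 CPM in J1 2i, 152 to 154 CPM in 3B3-3l serum and 142 to 145 CPM in 3B3-3l 2i. Lama1 made up most of this sum, with means of 109 and 180 CPM in J1 serum and 2i and of 137 and 135 CPM in 3B3-3l. In J1, the means of Gata4 and Sox17 were also higher in 2i, while those of Gata6, Sox7, Dab2, Foxa2 and Pdgfra were lower. The part of these marker genes in the results was not tested.

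The first question was how the feedback genes responded to 2i, which contains a MEK inhibitor. The 2i medium also held a GSK3 inhibitor and lacked serum, and J1 cells in serum had been kept on feeder cells. The effects of these differences cannot be told apart in this design. In J1 mESCs all 9 genes were lower in 2i than in serum and passed the test, where 32.9% of all genes tested were called lower, 33.2% higher and 66.1% in either direction. In 3B3-3l mESCs all 9 passed again, with 8 lower and only Spry2 higher, against 32.7% of all genes called lower, 32.7% higher and 65.4% in either direction. The libraries of the media did not overlap for any of the 9 genes in either line, which also held for 68.7% of all genes in J1 and 69.6% in 3B3-3l. The median log2 fold change of the 9 genes was -2.10 in J1 and -1.53 in 3B3-3l, beside 0.01 over all genes in each line. In these bulk samples, fewer cells that express a gene and less RNA per cell cannot be told apart.

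**Figure D1:**
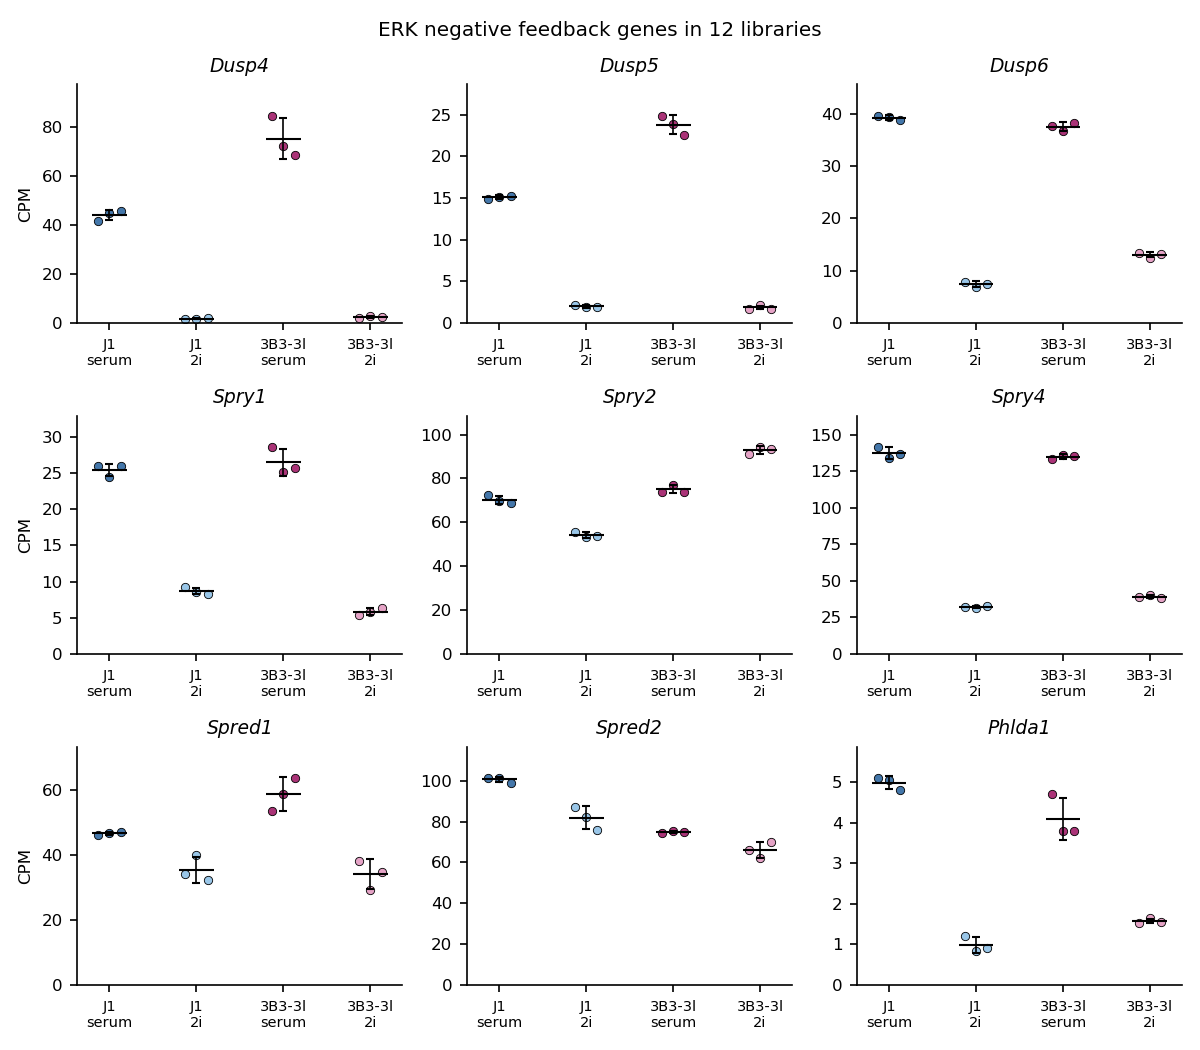
CPM of each feedback gene (vertical axes, each starting at 0) in the 12 libraries, by line and medium. Points are libraries, horizontal lines are group means and error bars are SD (n = 3). Dusp4, Dusp5, Dusp6, Spry1, Spry4 and Phlda1 fall steeply in 2i in both lines, Spred1 and Spred2 fall less, and Spry2 is lower in J1 2i and higher in 3B3-3l 2i than in the serum of the same line.

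Among the phosphatases, Dusp4, which codes for a nuclear phosphatase of ERK and other MAP kinases, had the largest fold change of the 9 genes in both lines. It was measured at 41.7, 45.1 and 45.6 CPM in the J1 serum libraries and at 1.57, 1.72 and 1.93 CPM in J1 2i. In 3B3-3l it was at 84.8, 72.5 and 68.7 CPM in serum and at 2.09, 2.66 and 2.55 CPM in 2i. The 4 groups did not overlap: 3B3-3l serum was highest, J1 serum followed, and both 2i groups were close to the bottom of the range. The mean fell from 44.1 ± 2.16 to 1.74 ± 0.178 CPM in J1 (SD, n = 3), 25.4-fold (log2 fold change -4.66 ± 0.12, SE, edgeR adjusted p = 1.15e-14). A 30.9-fold fall was seen in 3B3-3l, from 75.3 ± 8.42 to 2.44 ± 0.304 CPM (log2 fold change -4.95 ± 0.11, edgeR adjusted p = 3.09e-15).

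Dusp5, whose product is a nuclear phosphatase specific for ERK, was next in size. J1 serum libraries held it at 14.8, 15.1 and 15.3 CPM and J1 2i libraries at 2.16, 1.97 and 1.88 CPM. For 3B3-3l the values were 24.9, 23.9 and 22.6 CPM in serum and 1.73, 2.13 and 1.73 CPM in 2i. Serum thus separated the lines, with 3B3-3l higher, while the 2i libraries of the lines overlapped. The fall was 7.50-fold in J1 (log2 fold change -2.91 ± 0.09, edgeR adjusted p = 1.7e-13) and 12.7-fold in 3B3-3l (log2 fold change -3.67 ± 0.09, edgeR adjusted p = 1.21e-14).

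Dusp6, which codes for the cytoplasmic ERK phosphatase, showed the opposite difference between lines. Its level in serum was 39.6, 39.3 and 38.8 CPM in J1 and 37.7, 36.7 and 38.2 CPM in 3B3-3l. In 2i it was 7.88, 6.82 and 7.51 CPM in J1 but 13.3, 12.4 and 13.3 CPM in 3B3-3l. All 2i libraries lay below all serum libraries, and within 2i the J1 libraries lay below those of 3B3-3l. It fell 5.30-fold in J1 (log2 fold change -2.41 ± 0.06, edgeR adjusted p = 2.75e-14) and 2.89-fold in 3B3-3l (log2 fold change -1.53 ± 0.06, edgeR adjusted p = 1.87e-12).

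Promoter sequences, from 250 bases before to 50 bases after the RefSeq transcription start, are given for Dusp5 and Dusp6, whose falls in 2i differed between the lines in opposite directions. Dusp5 starts on the plus strand of chromosome 19, within chr19:53528895-53529194, and Dusp6 on the plus strand of chromosome 10, within chr10:99262981-99263280 (GRCm38.p6). Capitals mark matches to the CArG box, the binding sequence of serum response factor, in the Dusp5 promoter. No letters are in capitals in the Dusp6 promoter, which held no match.
Dusp5: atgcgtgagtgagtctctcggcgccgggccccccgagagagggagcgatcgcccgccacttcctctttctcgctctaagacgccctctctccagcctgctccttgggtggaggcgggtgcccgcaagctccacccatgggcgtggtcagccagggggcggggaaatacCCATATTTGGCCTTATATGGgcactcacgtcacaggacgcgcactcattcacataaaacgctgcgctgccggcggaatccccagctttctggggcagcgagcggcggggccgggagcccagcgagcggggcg
Dusp6: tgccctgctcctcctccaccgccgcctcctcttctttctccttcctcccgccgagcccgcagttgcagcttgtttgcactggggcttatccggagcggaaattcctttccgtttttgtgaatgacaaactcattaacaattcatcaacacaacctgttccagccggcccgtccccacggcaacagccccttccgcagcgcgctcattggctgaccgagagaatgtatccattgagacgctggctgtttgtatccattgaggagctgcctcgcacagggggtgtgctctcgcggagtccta

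Sprouty genes code for membrane-associated inhibitors of receptor tyrosine kinase signalling, and the 3 members differed in their response. In serum, Spry4 was measured at 142, 134 and 137 CPM in J1 and 133, 136 and 136 CPM in 3B3-3l. In 2i it was at 32.0, 31.2 and 32.9 CPM in J1 and at 38.9, 40.2 and 38.5 CPM in 3B3-3l. The serum libraries of the lines overlapped, and the 2i libraries did not. Spry4 fell 4.29-fold in J1 (log2 fold change -2.10 ± 0.04, edgeR adjusted p = 5.18e-15) and 3.45-fold in 3B3-3l (log2 fold change -1.79 ± 0.04, edgeR adjusted p = 2.02e-14).

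Spry1 stood at 25.9, 24.4 and 25.9 CPM in J1 serum and at 28.6, 25.1 and 25.7 CPM in 3B3-3l serum. Its level in 2i was 9.18, 8.56 and 8.32 CPM in J1 and 5.39, 5.84 and 6.29 CPM in 3B3-3l. The lines overlapped in serum, while in 2i every 3B3-3l library lay below every J1 library. The fall was 2.92-fold in J1 (log2 fold change -1.55 ± 0.07, edgeR adjusted p = 2.79e-11) and 4.53-fold in 3B3-3l (log2 fold change -2.18 ± 0.08, edgeR adjusted p = 6.41e-13).

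Spry2 was the one gene of the 9 that moved in opposite directions in the lines. J1 libraries held 72.4, 69.7 and 68.9 CPM in serum and 55.6, 53.4 and 53.6 CPM in 2i. The 3B3-3l libraries held 74.0, 77.1 and 73.9 CPM in serum and 91.1, 94.5 and 93.3 CPM in 2i. The 4 groups did not overlap, with 3B3-3l 2i highest and J1 2i lowest. Spry2 fell 1.30-fold in J1 (log2 fold change -0.38 ± 0.04, edgeR adjusted p = 1.78e-06) and rose 1.24-fold in 3B3-3l (log2 fold change 0.31 ± 0.04, edgeR adjusted p = 1.21e-05).

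The promoters of Spry1 and Spry2, related genes that responded differently, covered chr3:37639697-37639996 on the plus strand and chr14:105896770-105897069 on the minus strand (GRCm38.p6). Neither held a match to the motifs searched, so no letters are in capitals. The share of G and C was 64.3% in the Spry1 window and 62.7% in the Spry2 window, with 29 and 28 CpG dinucleotides.
Spry1: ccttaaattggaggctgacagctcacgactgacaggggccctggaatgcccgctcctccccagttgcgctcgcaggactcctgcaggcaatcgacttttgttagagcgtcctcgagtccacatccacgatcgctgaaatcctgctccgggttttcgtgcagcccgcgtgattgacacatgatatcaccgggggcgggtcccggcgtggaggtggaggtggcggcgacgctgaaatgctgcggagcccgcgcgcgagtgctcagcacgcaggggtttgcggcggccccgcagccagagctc
Spry2: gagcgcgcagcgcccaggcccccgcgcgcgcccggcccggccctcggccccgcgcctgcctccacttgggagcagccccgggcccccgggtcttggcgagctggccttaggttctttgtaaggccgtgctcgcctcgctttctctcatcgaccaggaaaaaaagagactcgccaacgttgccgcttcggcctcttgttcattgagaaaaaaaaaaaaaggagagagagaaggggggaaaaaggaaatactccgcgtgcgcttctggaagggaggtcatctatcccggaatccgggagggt

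As levels of different genes can be compared only per length, reads were also expressed per kilobase of effective transcript length, scaled to library size as CPM are. On this scale Spry2 was the most abundant of the 9 genes in all 4 groups, at 36.7 ± 0.998 in J1 serum, 28.4 ± 0.608 in J1 2i, 39.3 ± 1.01 in 3B3-3l serum and 48.4 ± 0.877 in 3B3-3l 2i (SD, n = 3). It held 46.5% ± 0.478 of the summed per-length level of the 3 Sprouty genes in J1 serum and 48.2% ± 0.819 in 3B3-3l serum. In 2i its share was 72.1% ± 0.278 in J1 and 80.9% ± 0.0716 in 3B3-3l, above every serum library. In J1 the share of Spry4 was 39.5% in serum and 18.4% in 2i and that of Spry1 14.0% and 9.49%. In 3B3-3l the share of Spry4 was 37.6% and 14.8% and that of Spry1 14.1% and 4.23%. The summed per-length level of the Sprouty genes was 78.8 ± 2.15 in J1 serum, 39.4 ± 0.770 in J1 2i, 81.5 ± 0.738 in 3B3-3l serum and 59.8 ± 1.13 in 3B3-3l 2i.

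The DUSP genes kept less of their serum level. Their summed per-length level was 38.6 ± 0.756 in J1 serum against 4.38 ± 0.210 in J1 2i, and 54.1 ± 3.52 in 3B3-3l serum against 6.69 ± 0.102 in 3B3-3l 2i (SD, n = 3). Dusp4 held the largest share of this sum in serum, 44.4% in J1 and 54.2% in 3B3-3l, whereas Dusp6 held the largest share in 2i, 64.5% in J1 and 73.8% in 3B3-3l. The share of Dusp5 lay between 11.0% and 20.8% in all 12 libraries. These levels and shares are descriptions and were not tested.

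**Figure D2:**
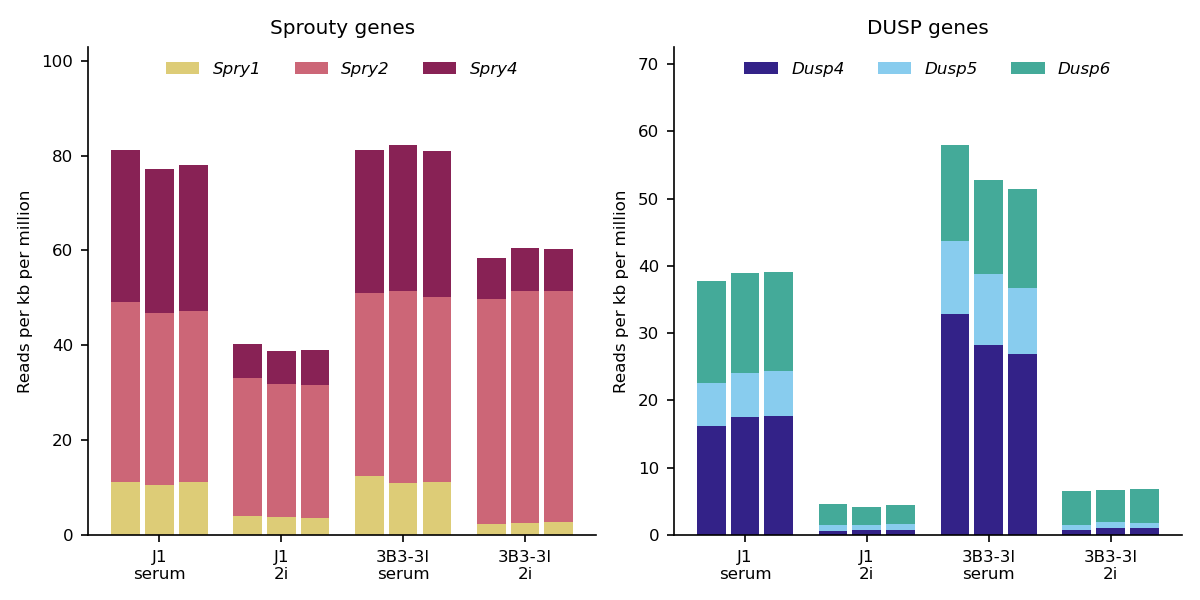
Per-length level (reads per kilobase of effective length, scaled as CPM, vertical axes from 0) of the Sprouty genes (left) and the DUSP genes (right), stacked by gene. Each bar is 1 library, with 3 per group. Spry2 makes up 71.7 to 81.0% of the Sprouty bars in 2i, and Dusp6 makes up 62.9 to 76.4% of the DUSP bars in 2i.

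Spred1 and Spred2, whose products bind neurofibromin and bring it to RAS, changed less than the genes above other than Spry2. Spred1 was at 46.3, 46.7 and 47.0 CPM in J1 serum and at 34.1, 40.1 and 32.4 CPM in J1 2i. In 3B3-3l it was at 53.5, 58.9 and 63.9 CPM in serum and at 38.3, 29.4 and 35.0 CPM in 2i. The 2i libraries lay below the serum libraries, and the 2i libraries of the lines overlapped over a wide range. Spred1 fell 1.31-fold in J1 (log2 fold change -0.39 ± 0.09, edgeR adjusted p = 0.00154) and 1.72-fold in 3B3-3l (log2 fold change -0.78 ± 0.09, edgeR adjusted p = 1.87e-06).

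Spred2 was the most stable of the 8 genes that fell in both lines. It ranged from 99.1 to 101 CPM in J1 serum and from 75.9 to 87.3 CPM in J1 2i, and from 74.3 to 75.5 CPM in 3B3-3l serum and from 62.2 to 69.8 CPM in 3B3-3l 2i. Every 3B3-3l library lay below every J1 library. Spred2 fell 1.23-fold in J1 (log2 fold change -0.30 ± 0.05, edgeR adjusted p = 0.000175) and 1.13-fold in 3B3-3l (log2 fold change -0.18 ± 0.06, edgeR adjusted p = 0.00906).

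Phlda1 had the lowest per-length level of the 9 genes in every group but 3B3-3l 2i, where Dusp5 was lower. It was measured at 5.11, 5.06 and 4.80 CPM in J1 serum and at 1.21, 0.826 and 0.902 CPM in J1 2i, where the lowest library held an estimated 36.0 reads. In 3B3-3l it was at 4.70, 3.80 and 3.79 CPM in serum and at 1.54, 1.64 and 1.55 CPM in 2i. All 4 groups were apart, with J1 serum highest and J1 2i lowest. Phlda1 fell 5.08-fold in J1 (log2 fold change -2.35 ± 0.15, edgeR adjusted p = 7.53e-10) and 2.59-fold in 3B3-3l (log2 fold change -1.37 ± 0.14, edgeR adjusted p = 2.51e-07).

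The second question was whether the lines differed under the same medium. J1 cells in serum had been kept on feeder cells and 3B3-3l cells on gelatin. The effects of line and of feeder culture in serum therefore cannot be told apart in this design. In serum, 4 of the 9 genes passed the test (38.7% of all genes did): Dusp4, Dusp5 and Spred1 were higher in 3B3-3l, a direction called for 21.5% of all genes, and Spred2 was lower, as called for 17.2%. Dusp4 was 1.71-fold higher (log2 fold change 0.77 ± 0.08, edgeR adjusted p = 1.59e-06), Dusp5 1.58-fold higher (0.66 ± 0.07, edgeR adjusted p = 2.67e-06) and Spred1 1.26-fold higher (0.33 ± 0.09, edgeR adjusted p = 0.00982). Spred2 was 1.34-fold lower in 3B3-3l (log2 fold change -0.43 ± 0.06, edgeR adjusted p = 1.96e-05). For the other genes the 95% confidence interval of the log2 fold change was -0.18 to 0.05 for Dusp6, -0.09 to 0.20 for Spry1, -0.12 to 0.07 for Spry4 and -0.0012 to 0.19 for Spry2. Phlda1 had a log2 fold change of -0.29 ± 0.12 and did not pass (edgeR adjusted p = 0.0763). Its adjusted p was 0.0262 without 3B3-3l serum replicate 1, 0.0493 without J1 2i replicate 1 and 0.0395 with only the serum libraries, so that its call depended on the libraries used. The lines did not overlap in serum for 7 of the 9 genes, as for 50.9% of all genes.

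In 2i, 7 of the 9 genes differed between the lines, a call made for 45.9% of all genes. Dusp4, Dusp6, Spry2, Spry4 and Phlda1 were higher in 3B3-3l (23% of all genes were) and Spry1 and Spred2 were lower (22.9% of all genes were). The largest differences were in Dusp6, 1.76-fold higher in 3B3-3l (log2 fold change 0.81 ± 0.06, edgeR adjusted p = 7.8e-08), and Spry2, 1.71-fold higher (0.78 ± 0.04, edgeR adjusted p = 2.28e-09). Phlda1 was 1.61-fold higher (0.69 ± 0.16, edgeR adjusted p = 0.00276) and Spry4 1.22-fold higher (0.29 ± 0.05, edgeR adjusted p = 8.87e-05). Spry1 was 1.49-fold lower (-0.57 ± 0.08, edgeR adjusted p = 2.9e-05) and Spred2 1.24-fold lower (-0.31 ± 0.06, edgeR adjusted p = 0.000259).

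The line difference of Dusp4 in 2i rested on few reads, between 69.0 and 115 in each library. It was 1.40-fold (log2 fold change 0.49 ± 0.15, edgeR adjusted p = 0.0123), and its adjusted p was 0.0765 without 3B3-3l 2i replicate 2 and 0.0571 without J1 2i replicate 1. Dusp5 and Spred1 did not pass in 2i, with 95% confidence intervals of -0.34 to 0.14 and -0.25 to 0.15 on the log2 scale. The 2i libraries of the lines did not overlap for 7 of the 9 genes, as for 52.6% of all genes.

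**Figure D3:**
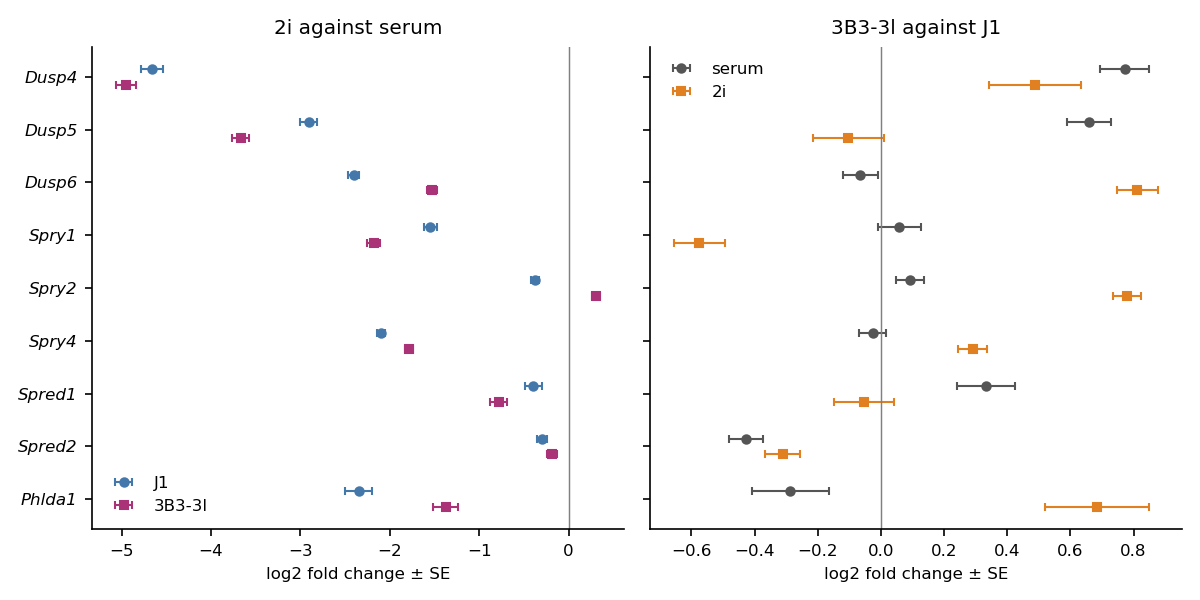
Log2 fold change (horizontal axes) of each feedback gene for 2i against serum in J1 and 3B3-3l (left) and for 3B3-3l against J1 in serum and 2i (right). Error bars are SE from the edgeR fit to all 12 libraries. On the left only Spry2 in 3B3-3l is above 0, at 0.31, and on the right Dusp6, Spry2 and Phlda1 reach 0.69 to 0.81 in 2i while lying between -0.29 and 0.09 in serum.

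The third question was whether the response to 2i itself differed between the lines. It was tested as the difference of the log2 fold changes (3B3-3l minus J1). As J1 serum cells had been kept on feeder cells, line and feeder culture cannot be told apart here either. The difference passed the test for 7 of the 9 genes, against 34.7% of all genes. The difference was above 0 for 4 genes (16.3% of all genes were called so). Phlda1 (0.97 ± 0.20, edgeR adjusted p = 0.00175), Dusp6 (0.88 ± 0.08, edgeR adjusted p = 1.68e-06) and Spry4 (0.32 ± 0.06, edgeR adjusted p = 0.00118) fell less in 3B3-3l. Spry2, which rose there, differed by 0.69 ± 0.06 (edgeR adjusted p = 9.32e-07). The difference was below 0 for 3 genes (18.3% of all genes were called so). Dusp5 (-0.76 ± 0.13, edgeR adjusted p = 0.000383), Spry1 (-0.63 ± 0.11, edgeR adjusted p = 0.000274) and Spred1 (-0.39 ± 0.13, edgeR adjusted p = 0.033) fell more in 3B3-3l. Dusp4 and Spred2 did not pass, with differences of -0.28 (95% confidence interval -0.64 to 0.07) and 0.12 (-0.05 to 0.28). The DUSP and Sprouty genes each held calls on either side, with Dusp5 against Dusp6 and Spry1 against Spry2 and Spry4.

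The call for Spred1 depended on single libraries. Its edgeR adjusted p was 0.0663 without 3B3-3l 2i replicate 2, 0.0512 without 3B3-3l 2i replicate 3, 0.061 without 3B3-3l serum replicate 2, 0.0813 without 3B3-3l serum replicate 3, 0.0865 without J1 2i replicate 2 and 0.0516 without J1 serum replicate 1. The other 6 differences passed whichever library was left out.

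The sum of squares of log2 CPM over the 12 libraries was split into medium, line, their interaction and the spread within groups, as a description. Medium held 98.8% of it for Spry4, 98.0% for Dusp4, 97.7% for Dusp5, 94.9% for Spry1, 91.8% for Dusp6 and 90.4% for Phlda1. For Spry2, medium held 0.343%, line 61.0% and the interaction 37.8%. Spred2 was also divided mainly by line, at 64.8%, with 28.0% for medium. Spred1 had the largest share within groups, 11.6%, beside 76.4% for medium.

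The deposited table of transcripts listed 1 transcript each for Dusp4, Dusp5, Dusp6, Spry2, Spry4 and Phlda1. Spry1 had 3, and Spry1-002 held between 55.6% and 65.1% of its estimated reads in the 4 groups. The share of Spry1-003 was 13.4% ± 2.86 in J1 2i (10.1 to 15.3% by library) and 5.53% ± 3.50 in J1 serum (2.09 to 9.08%), and it was 4.29% ± 1.07 and 4.72% ± 3.28 in 3B3-3l serum and 2i (SD, n = 3). The J1 2i libraries lay above all others, and these shares are a description that was not tested. Spred1-001 held at least 97.2% of Spred1 reads in each group. Spred2-001 held 66.6% to 71.2% of Spred2 reads and a second transcript most of the rest.

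Promoters of 6 of the 9 genes were found in the RefSeq table (Dusp5, Dusp6, Spry1, Spry2, Spred1 and Spred2), and those of Dusp4, Spry4 and Phlda1 were not. Both strands were searched for the AP-1 motif TGANTCA, the cyclic AMP response element TGACGTCA, the ETS motif CCGGAAGT and the TCF/LEF motif CTTTGATC. None of the 6 promoters held any of these letters. Of 32851 promoters of the same length, 7.81% held the AP-1 motif, 1.79% the cyclic AMP response element, 3.89% the ETS motif and 0.938% the TCF/LEF motif. The CArG box was searched after the promoters had been read. The Dusp5 promoter held 2 adjacent CArG boxes, CCATATTTGG and CCTTATATGG, which begin 82 and 72 bases before the transcription start, the other 5 promoters held none, and 1.63% of all promoters held at least 1. A match is a match of letters only.

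The other genes of the pathway were described from 4 lists. Of 17 tested genes for ERK-responsive transcription factors, 16 were lower and 1 higher in 2i in J1 (median log2 fold change -1.65). In 3B3-3l, 12 were lower and 4 higher (median -1.72). For comparison, lower calls made up 32.9% of the whole tested set in J1 and 32.7% in 3B3-3l. Higher calls made up 33.2% and 32.7% of that set, and its median log2 fold change was 0.01 in both lines. Egr1, an immediate early factor, fell from 99.3 ± 8.82 to 10.7 ± 3.49 CPM in J1 (log2 fold change -3.22 ± 0.22, edgeR adjusted p = 4.7e-09) and from 49.2 ± 1.14 to 1.50 ± 1.23 CPM in 3B3-3l (-5.06 ± 0.35, edgeR adjusted p = 4.17e-10). The AP-1 subunits Fos (-2.84 ± 0.14 in J1 and -3.07 ± 0.14 in 3B3-3l) and Jun (-1.86 ± 0.12 and -3.11 ± 0.14) fell in both lines as well. Not all factors fell: Etv4 was called higher in J1 (0.29) and in 3B3-3l (0.32). Elk3 (0.69), Ier2 (0.34) and Etv1 (0.19) were also called higher in 3B3-3l, where Etv5 did not pass (0.07, edgeR adjusted p = 0.179).

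FGF ligands and receptors were also mostly lower. Of 8 tested genes, 6 were lower and 1 higher in J1 (median log2 fold change -1.88). In 3B3-3l, 6 were lower and 0 higher (median -2.03), and Fgf4 and Fgfr1 did not pass, with edgeR adjusted p of 0.323 and 0.989. Beside these counts, a lower call went to 32.9% of the whole tested set in J1 and to 32.7% in 3B3-3l. A higher call went to 33.2% and 32.7% of that set, whose median was 0.01 in both lines. Fgfr2, a receptor gene, went from 21.6 ± 1.11 to 0.211 ± 0.0668 CPM in J1 (log2 fold change -6.66 ± 0.28, edgeR adjusted p = 3.55e-14) and from 8.41 ± 0.198 to 0.144 ± 0.109 CPM in 3B3-3l (-5.82 ± 0.34, edgeR adjusted p = 7.11e-13). Fgf15, a ligand gene, fell by 4.78 and 5.37 on the log2 scale, to means of 0.782 CPM in J1 2i and 0.498 CPM in 3B3-3l 2i. Both genes were below 1 CPM in 2i, so the sizes of these falls rest on few reads.

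Genes of the signalling cascade itself, from adaptors to ERK, changed in both directions. Of its 22 genes, 13 passed the test in J1, 9 higher and 4 lower (median log2 fold change 0.10). Of all genes, 66.1% passed in J1, 33.2% higher and 32.9% lower. In 3B3-3l, 17 passed, 8 higher and 9 lower (median -0.03), against 65.4% of all genes, 32.7% higher and 32.7% lower. Mapk3, which codes for ERK1, fell in both lines (-0.74 ± 0.06, edgeR adjusted p = 1.21e-08, and -1.12 ± 0.06, edgeR adjusted p = 7.58e-11), and the scaffold gene Ksr1 rose in both (0.73 ± 0.07, edgeR adjusted p = 6.89e-08, and 0.22 ± 0.06, edgeR adjusted p = 0.00629). Sos2, a gene for a RAS exchange factor, fell in 3B3-3l (-1.49 ± 0.07, edgeR adjusted p = 1.26e-11) and had a log2 fold change of 0.15 ± 0.07 in J1 (edgeR adjusted p = 0.0628).

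Among 15 tested relatives of the 9 genes and other inhibitors of the pathway, 10 were called lower and 3 higher in J1 (median log2 fold change -0.27). The shares of all genes called so were 32.9% and 33.2%. In 3B3-3l, 10 were called lower and 4 higher (median -0.64), against 32.7% and 32.7% of all genes. Dusp9, which codes for another cytoplasmic ERK phosphatase, fell from 62.3 ± 2.92 to 31.4 ± 0.538 CPM in J1 (-0.99 ± 0.06, edgeR adjusted p = 6.79e-10) and from 62.4 ± 3.75 to 13.8 ± 0.958 CPM in 3B3-3l (-2.18 ± 0.06, edgeR adjusted p = 9.7e-14). The imprinted gene Phlda2, a relative of Phlda1, fell by 1.62 on the log2 scale in J1 and by 4.23 in 3B3-3l. Lrig1, a gene for an inhibitor of receptor tyrosine kinases, rose in both lines (1.17 ± 0.07, edgeR adjusted p = 4.15e-10, and 0.72 ± 0.07, edgeR adjusted p = 1.61e-07). Dusp10 (0.87 in J1 and 0.77 in 3B3-3l) and Dusp14 (0.68 and 1.72) were also called higher in both lines. Phlda3 was called lower in J1 (-0.23) and higher in 3B3-3l (0.44). The median over all genes tested was 0.01 in each line.

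**Figure D4:**
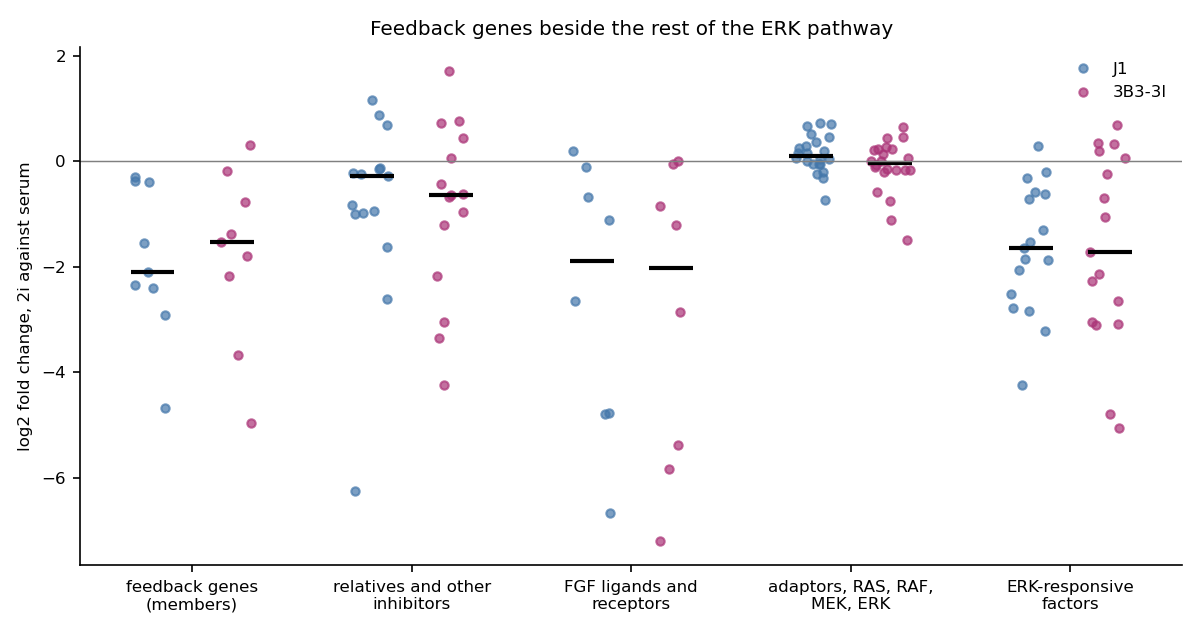
Log2 fold change for 2i against serum (vertical axis) of each tested gene of the feedback genes and of 4 further lists of the ERK pathway, in J1 and 3B3-3l. Points are genes, spread sideways only to separate them, and black lines are medians. The medians of the feedback genes (-2.10 and -1.53), the FGF genes (-1.88 and -2.03) and the ERK-responsive factors (-1.65 and -1.72) lie below those of the cascade (0.10 and -0.03).

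The gene whose log2 CPM was most like that of each member over the 12 libraries was found among 9981 genes, as a description in which all points share libraries and the split by medium. These were Cds1 for Dusp4 (Pearson r = 0.998), Kif1a for Dusp5 (0.998), Spata13 for Dusp6 (0.998), D8Ertd82e for Spry1 (0.998), Klhl22 for Spry2 (0.991), Ncan for Spry4 (0.998), Sycp3 for Spred1 (0.984), Usp22 for Spred2 (0.974) and Rarg for Phlda1 (0.998). Within the 9 genes, Dusp4 and Dusp5 were each other's nearest (r = 0.994), as were Dusp6 and Phlda1 (0.989). Spry2 stood apart, with r = 0.330 to its nearest member, Dusp6, and Spred2 followed, with 0.610 to Spry1. Klhl22, like Spry2, was lowest in J1 2i, at a mean of 27.8 CPM, and highest in 3B3-3l 2i, at 66.6 CPM.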

How the data were processed

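The authors quantified RNA-seq reads of 12 libraries on mouse transcripts (mm10) with Sailfish. They deposited estimated counts, effective lengths and TPM values per transcript, and estimated counts and effective lengths per gene. The deposited TPM values were used only for transcript shares and as weights for the transcript length offsets among the alternatives. Transcripts were joined to genes, and gene IDs to symbols, by GENCODE vM1 and RefSeq tables, and 33398 of 39017 gene IDs had a symbol. Positions and promoters came from RefSeq GRCm38.p6, the build of mm10.

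The estimated counts were rounded to whole numbers and fitted in edgeR 4.0.16 (R 4.3.3). Genes were kept by filterByExpr, libraries were scaled by TMM factors, and a quasi-likelihood fit with 1 coefficient per group gave 5 contrasts. Calls were made where the p, adjusted by Benjamini-Hochberg across the 17885 genes tested, was under 0.05. CPM are rounded counts scaled by library total and TMM factor. Per-length levels sum a gene's transcripts with an effective length of at least 50 bases. Confidence intervals cover 95%. The fit was checked on simulated counts.

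The 9 genes and all lists were chosen with earlier results of these data known. The genes named from each pathway list were the 2 with the largest absolute log2 fold change for 2i against serum in each line, among those called whose highest group mean was 10 CPM or more. For each of the 9 genes, the 1 most correlated gene at that level was also named. Some genes of the lists that rose or did not pass were named beside these. The motif for the CArG box was added after the promoters had been read.

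All pairs of replicates differed by more than counting error (chi-square per degree of freedom 3.81 to 23.1). The libraries were sequenced in pools, and the pool of each library is not given in the sources used here. Labels give the groups the same replicate numbers, but libraries with the same number did not deviate together (r of -0.118 to 0.062 over 18 pairs), so no block was used. Alternatives were DESeq2 1.42.0 (size factors and Wald test), other filters, a replicate block, transcript length offsets, fits to 6 libraries, and leaving out each library. No protein sequences were used here.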

Additional observations from a re-analysis of the deposited data

Results flagged for a closer look

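The response to 2i differed between the lines for 7 of the 9 feedback genes, by the test of the difference itself (3B3-3l minus J1, log2, edgeR adjusted p under 0.05), as it did for 34.7% of all genes tested. The difference was 0.97 for Phlda1, 0.88 for Dusp6, 0.69 for Spry2 and 0.32 for Spry4, and it was -0.76 for Dusp5, -0.63 for Spry1 and -0.39 for Spred1. The call for Spred1 was lost with a replicate block (adjusted p = 0.0566) and on leaving out any of 6 single libraries. Of the pathway genes named for large effects of 2i, 8 differed as well. The differences were -2.62 for Phlda2, -1.84 for Egr1, -1.64 for Sos2, -1.25 for Jun and -1.19 for Dusp9. They were -0.51 for Ksr1, -0.45 for Lrig1 and -0.38 for Mapk3. Fos, Fgfr2 and Fgf15, named by the same rule, did not pass (edgeR adjusted p = 0.388, 0.17 and 0.094). Over the full lists, calls of this difference were 6 higher and 3 lower of 17 ERK-responsive factors. They were 3 higher and 6 lower of 15 relatives and other inhibitors, and 4 higher and 9 lower of 22 cascade genes. Of 8 FGF genes, 0 were called higher and 2 lower, and leaving out 1 library gave 1 to 3 calls. Of all genes tested, 16.3% were called higher and 18.3% lower. For Spry2 the effects themselves had opposite signs, -0.38 in J1 and 0.31 in 3B3-3l. The cause of these differences was not tested.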

How the results depend on the processing

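Of 846 values of the 9 genes under the alternatives, 831 kept their direction and their side of the threshold, and 40 of 45 comparisons did so under every alternative run. The number of genes called of 9 was 9 for 2i against serum in each line under all alternatives, and leaving out 1 library gave 4 to 5 for the lines in serum, 6 to 7 for the lines in 2i and 6 to 7 for the difference of responses. With the replicate block, the difference for Spred1 was -0.39 with an adjusted p of 0.0566, leaving 6 of 9 called, and no other call of the 9 genes changed. Leaving out 1 library gave -0.47 to -0.29 for that difference, 0.39 to 0.59 for Dusp4 between lines in 2i and -0.40 to -0.23 for Phlda1 between lines in serum. Signs turned for uncalled values near 0: Spred1 between lines in 2i was 0.020 without 3B3-3l 2i replicate 2 and 0.040 without J1 2i replicate 2, and Spry1 between lines in serum was -0.0018 without 3B3-3l serum replicate 1. Over all libraries left out they ranged from -0.14 to 0.040 and from -0.0018 to 0.10. With only the 6 serum libraries, Phlda1 passed (-0.31, adjusted p = 0.0395). The cause of these changes was not tested.

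DESeq2 size factors and length offsets moved the median of all genes by -0.0124 to 0.0051 (log2). Per-length levels with all transcripts were within 1 SD in 36 of 36 cases, and 12 of 24 transcript shares moved by more than 1 SD when TPM replaced reads. Depth limits Dusp4, Dusp5 and Phlda1 in 2i, where a library held as few as 36.0 estimated reads. Depth also limits Fgfr2 and Fgf15 in 2i, whose means were below 1 CPM.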
